A study of Mus musculus with 6 samples.

Results

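Germline and meiosis genes were followed in the heads of mouse embryos that lack the histone demethylase Jarid1b. The set holds 41 genes with established roles in germ cells, chosen by name, and each was read from the probe set that the platform annotation pairs with that gene symbol alone. They are 41 of 19938 genes with such a probe set. The genotypes, both C57BL/6 and both at embryonic day 8.5, were Jarid1b knockout (3 pools) and Jarid1b heterozygote (3 pools), with 4 heads per pool, untreated. The heterozygotes, which keep a single intact allele, served as controls, so that both genotypes carry at least 1 deleted allele and no wild-type embryos were measured. By the study's methods the allele lost an exon through Cre driven by the Cmv promoter, which acts in all tissues. Each pool was read on an Affymetrix mouse Gene 1.0 ST array, where several probes along a transcript are summarized into 1 intensity. Values are given as log2 of that intensity, a difference of 1 being a doubling, and every log2 fold change is knockout minus heterozygote.

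Germ cells arise outside the head, as primordial germ cells that migrate through the hindgut at about this stage, and they later enter meiosis in the gonad. Outside that lineage most genes of meiosis and of the piRNA pathway, in which small RNAs guide Piwi proteins against transposons, are kept silent by DNA methylation of their promoters and by a variant Polycomb complex. That complex is brought to DNA by the heterodimer of Mga and Max, which binds the E-box CACGTG, and by E2f6, which binds the motif TCCCGC. Jarid1b removes methyl groups from lysine 4 of histone H3, a mark of active promoters, and its relative Jarid1c (Kdm5c) is known to hold germline genes silent in neurons. The comparison therefore asks whether germline genes differ in the head when Jarid1b is missing. Whether each of them is silent there was not judged.

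The letters of both motifs were looked up in promoter windows of 300 bases (250 before and 50 after the start, RefSeq, GRCm38.p6), which were given for 34 of the 41 genes. The E-box CACGTG, which reads the same on both strands, was present in 12 of the 34 windows (35.3%), against 1311 of 15614 windows of genes on the array (8.4%). TCCCGC on either strand was present in 14 (41.2%), against 4333 (27.8%), and both motifs, which can share at most an end base, in 7 (20.6%), against 462 (2.96%). The germline windows held a median of 18 CpG pairs, from 0 in Nanos2 to 48 in Tdrd5, against a median of 15. The 250 bases before the start are shown for Sycp2, the gene with the smallest p of the set, for Tdrd9, Piwil1, Sycp3 and Tdrd1, which carry the E-box and whose pools did not overlap between genotypes, and for Mael, the germline gene for which the study designed chromatin immunoprecipitation primers. Capitals mark the E-box, or TCCCGC on either strand.
Sycp2, chr2:178407659-178407908, minus strand: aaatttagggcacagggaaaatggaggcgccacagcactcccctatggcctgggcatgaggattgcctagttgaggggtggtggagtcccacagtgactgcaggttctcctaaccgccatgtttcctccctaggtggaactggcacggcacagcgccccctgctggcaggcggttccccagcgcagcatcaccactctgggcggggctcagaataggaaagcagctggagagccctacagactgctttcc
Tdrd9, chr12:111971309-111971558, plus strand: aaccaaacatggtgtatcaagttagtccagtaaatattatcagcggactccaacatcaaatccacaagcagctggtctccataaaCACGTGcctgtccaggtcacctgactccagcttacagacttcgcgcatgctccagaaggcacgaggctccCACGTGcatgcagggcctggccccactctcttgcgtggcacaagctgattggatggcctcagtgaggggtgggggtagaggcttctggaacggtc
Piwil1, chr5:128735996-128736245, plus strand: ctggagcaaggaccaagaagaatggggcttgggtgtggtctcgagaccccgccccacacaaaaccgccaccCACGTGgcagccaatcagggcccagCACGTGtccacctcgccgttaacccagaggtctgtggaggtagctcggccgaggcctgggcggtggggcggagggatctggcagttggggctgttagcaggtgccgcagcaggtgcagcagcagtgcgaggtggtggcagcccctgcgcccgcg
Sycp3, chr10:88459337-88459586, plus strand: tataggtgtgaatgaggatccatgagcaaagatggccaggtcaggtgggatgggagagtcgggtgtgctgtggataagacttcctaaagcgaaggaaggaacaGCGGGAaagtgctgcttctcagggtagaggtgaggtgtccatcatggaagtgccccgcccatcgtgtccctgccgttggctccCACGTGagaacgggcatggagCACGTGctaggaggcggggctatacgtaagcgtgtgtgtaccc
Tdrd1, chr19:56825959-56826208, plus strand: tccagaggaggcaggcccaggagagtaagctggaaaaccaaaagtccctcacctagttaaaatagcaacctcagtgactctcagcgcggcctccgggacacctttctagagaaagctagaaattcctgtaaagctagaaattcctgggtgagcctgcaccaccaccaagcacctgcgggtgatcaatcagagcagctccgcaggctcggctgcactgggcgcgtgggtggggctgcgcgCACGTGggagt
Mael, chr1:166238745-166238994, minus strand: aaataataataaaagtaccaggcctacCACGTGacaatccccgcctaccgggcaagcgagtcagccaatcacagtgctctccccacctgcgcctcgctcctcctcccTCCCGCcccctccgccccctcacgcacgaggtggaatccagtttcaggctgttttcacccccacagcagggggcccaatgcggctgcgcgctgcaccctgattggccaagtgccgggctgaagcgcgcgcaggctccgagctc

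These stretches differ in where the letters stand. In Tdrd1 the E-box starts 11 bases before the transcription start, and in Sycp3 a pair of E-boxes starts 64 and 43 bases before it. In Tdrd9 they start at 165 and 95 bases, in Piwil1 at 179 and 154 bases, and Sycp2 has no match in this window. In Mael the E-box starts 223 and TCCCGC 143 bases before the start, and between them lies the match of the forward primer of the study (gtggggagagcactgtgatt, read on the opposite strand), from 184 to 165 bases before the start. The reverse primer had no match in the window, so the ends of the amplified stretch were not placed. A motif match is a stretch of letters and does not show that a protein binds there.

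The targeted gene was low in every knockout pool. Jarid1b, listed as Kdm5b, had log2 intensities of 7.63, 7.47 and 7.71 in knockout pools, against 9.17, 9.12 and 9.16 in heterozygote pools, a log2 fold change of -1.55 (95% confidence interval -1.71 to -1.38, limma, adjusted p = 6.29e-04). Whether the array probes fall in the deleted exon was not checked. The paralogs Kdm5a (0.08) and Kdm5c (-0.08) did not pass the test. Nor did the Y-linked Kdm5d (0.81, adjusted p = 0.533), with 7.57, 7.96 and 7.70 in knockout pools, against 6.37, 8.07 and 6.35 in heterozygote pools, where pool 2 stood with the knockout pools. Pools differed in other ways. Summed intensities of 6 measured primitive blood genes of 7 listed were 323, 1816 and 480 in knockout pools, against 343, 238 and 331 in heterozygote pools, and those of 9 yolk sac visceral endoderm genes were 8408, 8406 and 3745, against 8529, 7216 and 8221. Xist, transcribed from the inactive X, read 8.82, 3.74 and 8.91 in knockout pools, against 10.17, 4.22 and 10.08 in heterozygote pools, and the Y-linked Uty read 7.196, 7.48 and 7.17, against 5.77, 7.60 and 5.77. The blood sum was thus highest in knockout pool 2 and the visceral endoderm sum lowest in knockout pool 3. Hba-x, Hbb-bh1, Hbb-y and Gata1 were highest in knockout pool 2, but Klf1 in knockout pool 3 (5.29) and Alas2 in heterozygote pool 1 (6.35). All 6 blood genes had a positive log2 fold change. Klf1 (0.26, adjusted p = 0.398) alone had every knockout pool above every heterozygote pool (16.7% of the list, background 8.03%). Heterozygote pool 2 resembled knockout pool 2 in its sex-linked genes, with low Xist and high Uty. The mix of embryo sexes thus differed between pools. Among the blood genes Hbb-bh1 (1.66) and Hba-x (1.57) had the highest log2 fold changes and Gata1 (0.12) and Alas2 (0.06) the lowest. Among the visceral endoderm genes Apom (-0.64) and Afp (-0.50) were the lowest and Amn (-0.04) and Apoa4 (-0.21) the highest, and of the sex-linked genes Eif2s3y (0.93), Uty (0.90) and Xist (-0.999) were farthest from 0. None of these passed the test. The part of these differences in the values of the germline genes was not tested.

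No germline gene passed the test across the array. At an adjusted p under 0.05 (limma, Benjamini-Hochberg over 21789 probe sets) 0 of 41 genes were called in either direction, where the background was 0.00459%, a single probe set, that of Jarid1b itself. The smallest adjusted p among the germline genes was 0.356, for Sycp2. Their log2 fold changes ran from -0.26 (Ddx4) to 0.30 (Nanos3, 1.23-fold higher). All 41 confidence intervals lay inside a 2-fold change in either direction, and 40 inside a 1.5-fold change, the exception being Ddx4, whose interval reached -0.74. The smallest p that an exact permutation test can reach for 1 gene with 3 pools a genotype is 0.1. In pools of whole heads, fewer cells of a type and less RNA per cell cannot be told apart.

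Before adjustment 6 genes had a p under 0.05, of which 5 were higher in knockouts (12.2% of the set, background 5.97%) and 1 was lower (2.44%, background 4.66%). The same 5 genes, Nanos3, Sycp2, Piwil2, Tdrd9 and Piwil1, had every knockout pool above every heterozygote pool (12.2%, background 8.03%). Sycp3, Tdrd1 and Dmc1 had every knockout pool below every heterozygote pool (7.32%, background 9.03%). The split of 5 higher and 1 lower became 3 and 3 under quantile normalization (background 4.13% and 3.9%), 3 and 3 under cyclic loess (3.85% and 4.57%) and 3 and 2 under median centring (2.94% and 6.82%). The plot of log2 fold changes by role shows all 41 genes with their intervals.

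**Figure D1:**
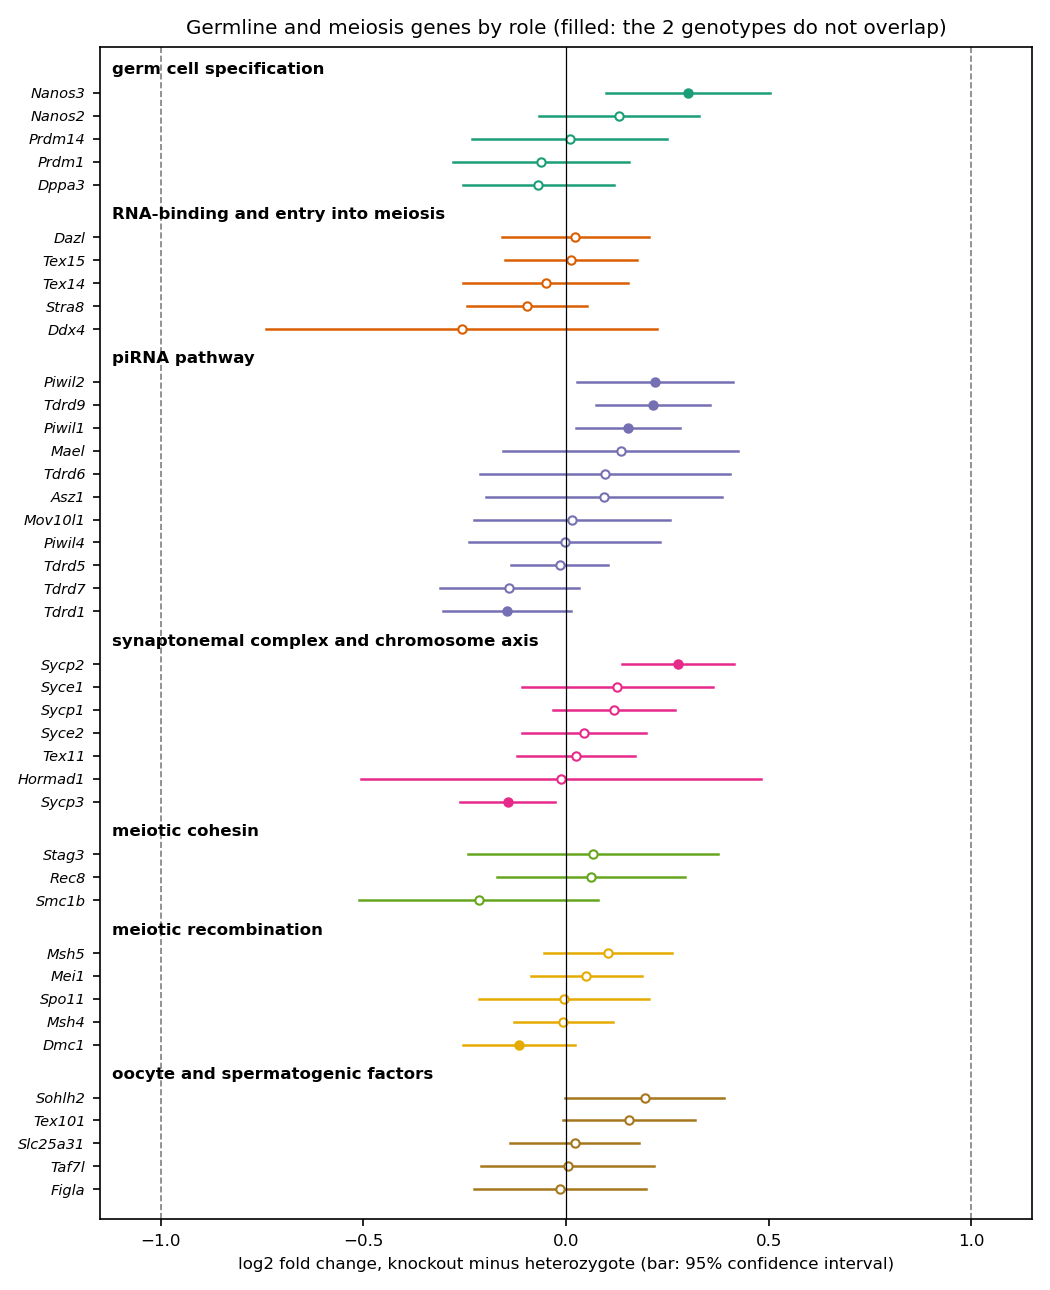
Log2 fold change (knockout minus heterozygote, horizontal axis) of each of the 41 germline genes, grouped by role, with its 95% confidence interval as a bar. Filled points mark the 8 genes whose pools do not overlap between genotypes, 5 to the right of 0 and 3 to the left, and the dashed lines at a 2-fold change are reached by no interval.

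Genes that specify and keep primordial germ cells lay on both sides of 0. Nanos3, an RNA-binding protein that primordial germ cells need to survive, had the largest log2 fold change of the set. It read 5.92, 5.84 and 5.84 in knockout pools, against 5.74, 5.55 and 5.41 in heterozygote pools, a log2 fold change of 0.30 (SE 0.09, adjusted p = 0.391). The knockout pools were close together and all above the heterozygote pools, which spread over a wider range. Nanos2, its relative in male germ cells, had overlapping pools and a log2 fold change of 0.13. Prdm1, the repressor that starts germ cell specification and is also made in other embryonic tissues, was among the brighter probe sets, with 7.91, 7.62 and 7.56 in knockout pools, against 7.73, 7.76 and 7.79 in heterozygote pools. The first knockout pool was the highest and the other 2 knockout pools the lowest of the 6, and the log2 fold change was -0.06 (adjusted p = 0.832). Prdm14, its partner in specification, had a log2 fold change of 0.0093. Dppa3 (Stella), which protects DNA methylation in the early embryo, had -0.07 by its brighter probe set and -0.09 by the other. Dppa3 has retrotransposed copies in the mouse genome, so its signal is uncertain.

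The RNA-binding proteins and the genes of entry into meiosis showed no gene with separate pools. Ddx4 (Vasa), the helicase that marks germ cells from the gonad onward, had the lowest log2 fold change of the set, -0.26 (SE 0.21, adjusted p = 0.681). It read 4.03, 3.94 and 3.98 in knockout pools, against 3.86, 4.78 and 4.08 in heterozygote pools. Heterozygote pool 2 stood far above the other 5 pools, whose values lay close together, and without it the log2 fold change of Ddx4 was 0.014. Stra8, which retinoic acid induces at the entry into meiosis, had a log2 fold change of -0.10, and Tex14, which keeps the bridges between germ cells open, of -0.05. Dazl, an RNA-binding regulator of germ cell fate, had 0.02. Tex15, needed for repair of meiotic breaks and for transposon silencing, had 5.82, 5.73 and 5.97 in knockout pools, against 5.82, 5.82 and 5.83 in heterozygote pools. Its 3 heterozygote values lay within the spread of the knockout pools, and its log2 fold change of 0.012 was -0.029 under quantile normalization and -0.028 under cyclic loess.

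The piRNA pathway held 4 of the 8 genes with separate pools, 3 of its 11 genes being higher in knockouts (27.3%) and 1 lower (9.09%), against 8.03% and 9.03% of all probe sets and 12% and 2.05% of dim ones. These counts are few, and nothing particular to the pathway is read from them. Piwil2 (Mili), the Piwi protein of fetal germ cells, had 4.61, 4.58 and 4.56 in knockout pools, against 4.18, 4.42 and 4.48 in heterozygote pools, a log2 fold change of 0.22 (SE 0.08, adjusted p = 0.428). The lowest knockout pool exceeded the highest heterozygote pool by little, and heterozygote pool 1 was the lowest of all. Piwil1 (Miwi), the Piwi protein of later spermatogenesis, had 4.78, 4.65 and 4.72 in knockout pools, against 4.58, 4.56 and 4.56 in heterozygote pools, a log2 fold change of 0.15 (SE 0.06, adjusted p = 0.419). Tdrd9, a helicase that works with the Piwi proteins of the fetal testis, had 5.14, 5.003 and 5.10 in knockout pools, against 4.83, 4.93 and 4.84 in heterozygote pools, a log2 fold change of 0.21 (SE 0.06, adjusted p = 0.391). In both genes the pools of a genotype lay close together. Tdrd1, a Tudor protein that gathers Piwi proteins in germ granules, lay the other way, with 5.03, 4.93 and 5.03 in knockout pools, against 5.25, 5.12 and 5.06 in heterozygote pools (log2 fold change -0.15, SE 0.07, adjusted p = 0.494). Piwil1, Tdrd9 and Tdrd1 were printed above because they carry the E-box and have separate pools, so that they carry it is no result. No promoter window was given for Piwil2, and Mael and Mov10l1 carry the E-box with overlapping pools.

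The remaining piRNA genes had overlapping pools. Mael, a germ granule protein of transposon silencing, had 3.19, 3.15 and 3.07 in knockout pools, against 2.93, 3.30 and 2.77 in heterozygote pools, a log2 fold change of 0.13 (SE 0.12, adjusted p = 0.729). Its knockout pools lay between heterozygote pool 2, the highest, and the other heterozygote pools. In forebrains of newborns the study reported Mael expression as below detection. There it found no increased methylation of lysine 4 at unmodified genes, the class that Mael represents in its figure. In heads at E8.5, the stage measured here, the study reported increased methylation that was enriched at repressed and bivalent genes. Its own array analysis found a change of more than 2-fold in Jarid1b only. Tdrd7, a Tudor protein that also acts in the lens, had 6.68, 6.49 and 6.61 in knockout pools, against 6.69, 6.84 and 6.67 in heterozygote pools, a log2 fold change of -0.14 (adjusted p = 0.537) that missed separation because knockout pool 1 exceeded heterozygote pool 3. Tdrd6 (0.10), Asz1 (0.09), Mov10l1 (0.015), Piwil4 (-0.0033) and Tdrd5 (-0.016) had smaller log2 fold changes. Over the 11 piRNA genes 7 were positive and 4 negative, with a median of 0.094. Measured from the median of probe sets of like intensity, the median was 0.044, with 6 of 11 above.

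**Figure D2:**
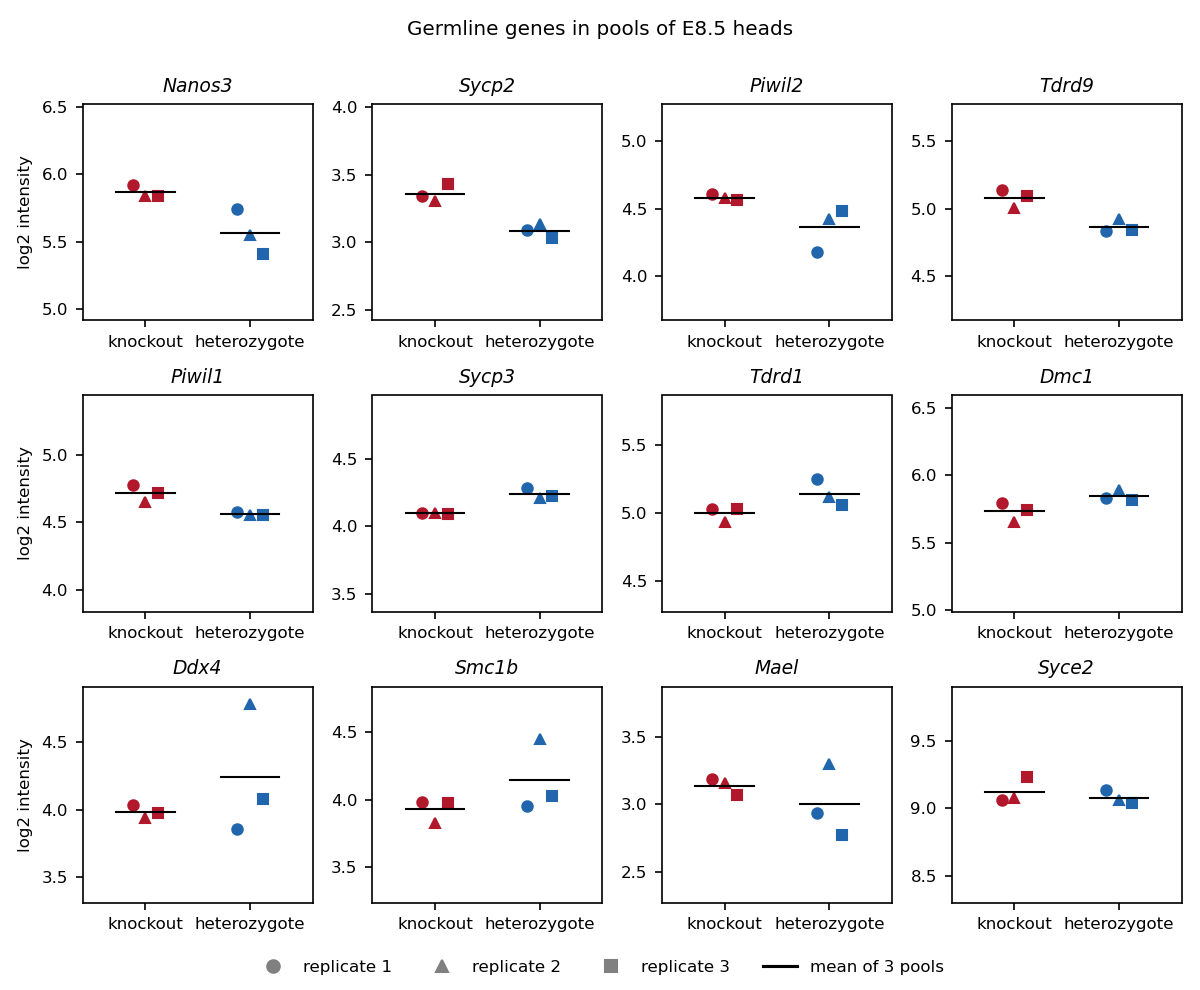
Log2 intensity (vertical axis, of equal length in every panel) of 12 germline genes in the 3 knockout pools (red, left) and the 3 heterozygote pools (blue, right), with the mean of each genotype as a line and the replicate number as the symbol. The upper 8 panels show the genes with separate pools, and in Ddx4 and Smc1b heterozygote replicate 2 stands above all other pools, at 4.78 and 4.45.

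The synaptonemal complex, which zips paired chromosomes together in meiosis, held Sycp2, the gene with the smallest p of the set, and Sycp3, the gene that was lower in knockouts before adjustment. Both are proteins of its lateral element. Sycp2 had 3.34, 3.31 and 3.43 in knockout pools, against 3.09, 3.13 and 3.03 in heterozygote pools, a log2 fold change of 0.28 (SE 0.06, 95% confidence interval 0.14 to 0.41, adjusted p = 0.356). Sycp3, which binds Sycp2 along the chromosome axis, had 4.10, 4.10 and 4.09 in knockout pools, against 4.28, 4.21 and 4.23 in heterozygote pools, a log2 fold change of -0.14 (SE 0.05, 95% confidence interval -0.26 to -0.03, adjusted p = 0.416). The pools of each genotype lay close together in both genes, and the partners lay on opposite sides. Sycp1, the transverse filament, had a log2 fold change of 0.12, and Syce1 of the central element 0.13. Syce2, also of the central element, was the brightest row of the set and had 9.06, 9.08 and 9.23 in knockout pools, against 9.13, 9.06 and 9.04 in heterozygote pools (log2 fold change 0.045, adjusted p = 0.829). Hormad1, an axis protein, ranged from 3.46 to 3.91 in knockout pools, the widest range of the set there, against 3.33 to 4.20 in heterozygote pools. Its probe sets disagreed in sign, with -0.013 for the brighter and 0.17 for the dimmer. The X-linked Tex11, a crossover protein, had 0.02.

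The meiosis-specific cohesin subunits, which hold sister chromatids together, and the genes of meiotic recombination showed a single gene with separate pools. This was Dmc1, the recombinase that searches for the homologous chromosome, with 5.80, 5.65 and 5.74 in knockout pools, against 5.83, 5.89 and 5.82 in heterozygote pools, a log2 fold change of -0.12 (SE 0.06, adjusted p = 0.525). The gap between its highest knockout and lowest heterozygote pool was small. Smc1b had 3.98, 3.83 and 3.98 in knockout pools, against 3.96, 4.45 and 4.03 in heterozygote pools, a log2 fold change of -0.22 (SE 0.13, adjusted p = 0.576). As with Ddx4, heterozygote pool 2 stood above the rest, and without it the log2 fold change of Smc1b was -0.06. Its partners Stag3 and Rec8 had log2 fold changes of 0.07 and 0.06. Spo11, which cuts DNA to begin recombination, had -0.0051, and Mei1, needed for those cuts, 0.05. Msh4 and Msh5, which form a dimer that stabilizes crossover intermediates, had -0.0065 and 0.10. The 3 cohesin and 5 recombination genes had medians of 0.062 and -0.0051, and 0.0053 and -0.056 when measured from probe sets of like intensity.

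Of the factors of oocytes and spermatogenesis, none had separate pools. Sohlh2, a helix-loop-helix regulator of germ cell differentiation, had 4.43, 4.12 and 4.28 in knockout pools, against 4.01, 4.12 and 4.13 in heterozygote pools, a log2 fold change of 0.19 (SE 0.08, adjusted p = 0.470). Tex101, a surface protein of sperm precursors, had 4.74, 4.54 and 4.73 in knockout pools, against 4.56, 4.46 and 4.53 in heterozygote pools, a log2 fold change of 0.16 (SE 0.07, adjusted p = 0.485). In each gene the pools overlapped through knockout pool 2 alone. Slc25a31, the ADP/ATP carrier of male germ cells, had 0.022, the X-linked Taf7l, a germ cell relative of a general transcription factor, 0.0037, and Figla, which turns on zona pellucida genes in oocytes, -0.016.

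The small positive lean of the set was set beside probe sets of like brightness, because dim probe sets as a whole were higher in knockouts. The dimmest 7263 of the 21789 probe sets had a median log2 fold change of 0.056, with 69.6% positive, against -0.035 and 29.8% in the brightest 7263. Germline genes lay mostly in the dim part, with 32 of 41 among these dimmest probe sets, 7 in the middle and 2, Prdm1 and Syce2, among the brightest. Brightness is a property of the probes as well as of the RNA, and ranks no gene above another. No detection calls were used, so whether the 32 dim germline genes, such as Sycp2 at the 6.47th percentile of intensity, lie above background was not judged, and their log2 fold changes are those of the measured intensity only. The median log2 fold change of the 41 genes was 0.022, against -0.00072 over all probe sets, with 25 genes positive (61%, background 49.7%). It was -0.014 under quantile normalization and -0.016 under cyclic loess, where the medians over all probe sets were -0.00018 and -0.0044. The median of the set minus that of all probe sets was thus -0.0137 and -0.0119. Between pools of a genotype, the median deviation of the set had an SD of 0.028. Median centring lowered every probe set alike (median of all -0.040, of the set -0.017) and left the set 0.0225 above, as without it. The 32 dim germline genes had a median of 0.019, which is below the 0.056 of all dim probe sets.

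**Figure D3:**
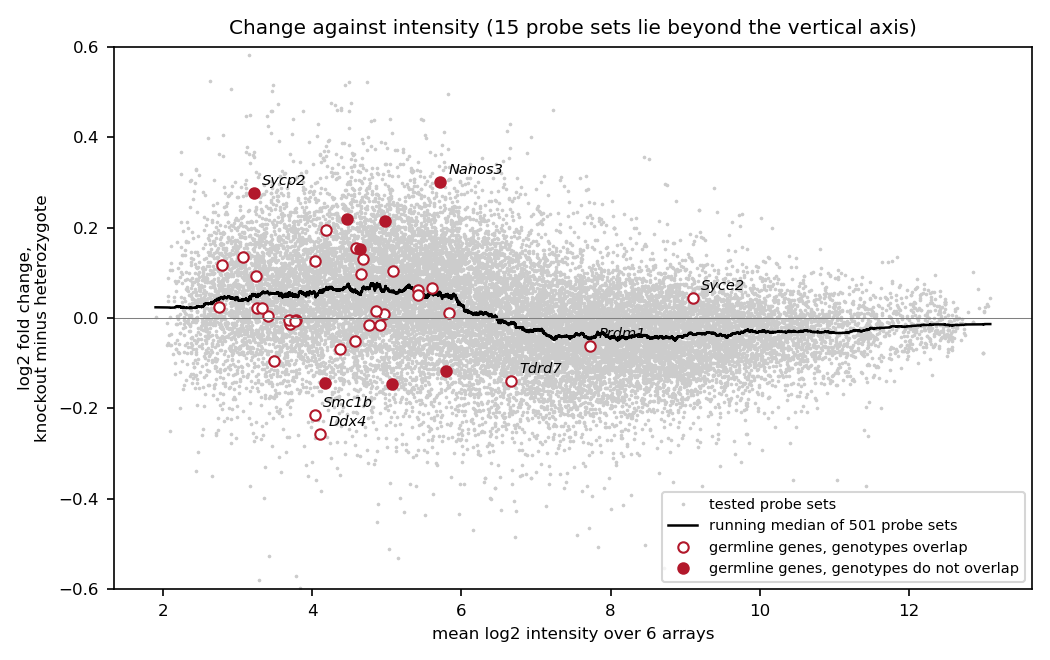
Log2 fold change (knockout minus heterozygote, vertical axis) against mean log2 intensity over the 6 arrays (horizontal axis) of all tested probe sets (grey) and the 41 germline genes (red circles, filled where the pools do not overlap between genotypes), with the running median of 501 neighbours in intensity as a line. The line lies above 0 for dim and below 0 for bright probe sets, and 17 of the 41 germline genes lie above it.

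Against the 501 probe sets nearest in mean intensity, 17 of 41 germline genes lay above the local median, and the median distance from it was -0.025. Nanos3 ranked at the 97.8th percentile of its neighbours and Sycp2 at the 96.0th. At the other end stood Ddx4 at the 0.599th, Smc1b at the 2.59th, Sycp3 at the 4.19th and Tdrd1 at the 4.99th. Among the dimmest probe sets, 4 of the 32 germline genes had an unadjusted p under 0.05 and were higher in knockouts (12.5%, background 10.5%), and 1 was lower (3.12%, background 1.57%). The same 4 were higher in every knockout pool (12.5%, background 12%), and 2, Sycp3 and Tdrd1, were lower in every knockout pool (6.25%, background 2.05%). The share of higher genes was thus close to that of dim probe sets, and the share of lower ones rests on 2 genes.

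No genotype supplied only the high or only the low pools. Heterozygote pool 2 was the highest of the 6 pools for 12 germline genes, knockout pool 3 for 11 and knockout pool 1 for 8. Heterozygote pool 3 was the lowest for 11, knockout pool 2 for 10 and heterozygote pool 1 for 9. Knockout pool 2, with the highest blood sum, was the highest for 3 of the genes. Knockout pool 3, with the lowest visceral endoderm sum, was the highest for 11. It also stood highest over all dim probe sets, with a median deviation from the mean of the 6 pools of 0.047. There knockout pools 1 and 2 had 0.024 and 0.009, and the heterozygote pools -0.030, -0.021 and -0.033. Such counts were not made over all probe sets, and a link of the counts to tissue content was not tested.

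Genes with and without the E-box had log2 fold changes on both sides of 0. The 12 genes that carry CACGTG had a median log2 fold change of 0.019, with Tdrd9 and Piwil1 higher and Sycp3 and Tdrd1 lower in every knockout pool. The 22 genes without it had a median of 0.034, with Sycp2 and Nanos3 higher and Dmc1 lower. Over all probe sets 8.03% were higher and 9.03% lower in this way, and so few genes are not read against those shares. Ddx4, Mael, Hormad1, Stag3, Sycp1, Slc25a31 and Sycp3 carry both motifs, and of these only Sycp3 had separate pools. These splits are descriptions of 34 windows, and other sequence around the start was not searched.

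Further genes of meiosis and the piRNA pathway, 30 of 35 listed, were read beside the 41. None was called at an adjusted p under 0.05, 15 were positive and 15 negative, and their median log2 fold change was 0.0013. Before adjustment 5 of the 30 were higher in knockouts (16.7%, background 5.97%, or 10.5% among dim probe sets, which 15 of the 30 are), among them Dpep3, a dipeptidase of spermatocytes (0.28, adjusted p = 0.412), and Tdrkh, a Tudor partner of Piwi proteins (0.25, adjusted p = 0.468). The other 3 were Dnd1 (0.23), Lhx8 (0.23) and Meioc (0.20), and 1 was lower (3.33%, background 4.66%), the mismatch repair gene Mlh3 (-0.16). Rec114, needed for meiotic breaks, had the lowest log2 fold change of the list (-0.26, adjusted p = 0.470), with overlapping pools.

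**Figure D4:**
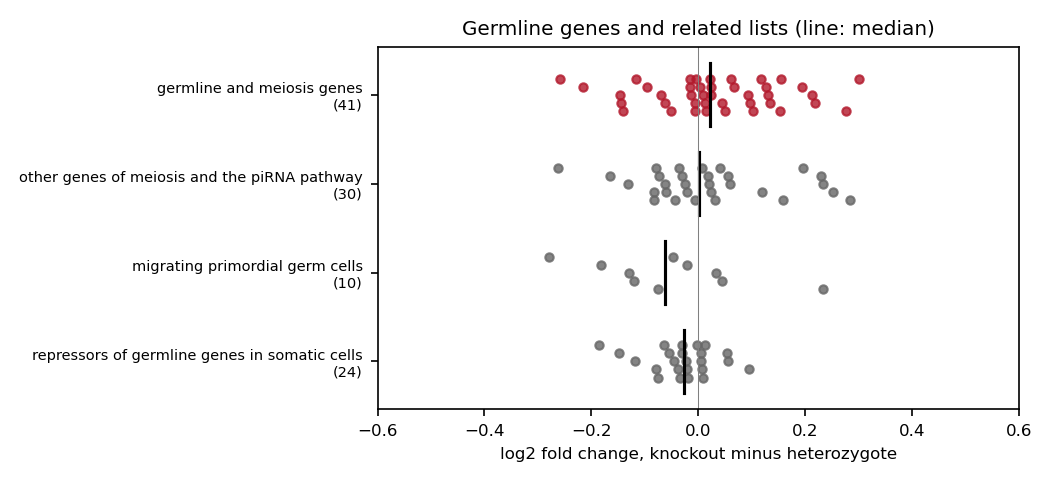
Log2 fold change (knockout minus heterozygote, horizontal axis) of the genes of 4 lists, with the number of genes in parentheses, each point being a gene and each black line the median of its list. The medians are 0.022, 0.0013, -0.061 and -0.026 from top to bottom, and all points lie between -0.28 and 0.30.

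Repressors that keep germline genes silent in somatic cells were read as a chosen list of 24 genes, which need not be complete. All 24 listed repressors had a probe set, none was called, and 16 had a negative and 8 a positive log2 fold change, with a median of -0.026 that lies close to the -0.035 of the brightest probe sets. Of the variant Polycomb complex, Rybp had the lowest log2 fold change, with 9.47, 9.35 and 9.48 in knockout pools, against 9.51, 9.69 and 9.65 in heterozygote pools (-0.19, adjusted p = 0.424). All 3 of its knockout pools lay below the heterozygote pools, as did those of Pcgf6 (-0.05), of Wdr5 (-0.15), a subunit of histone methyltransferases, and of the DNA methyltransferase Dnmt3b (-0.12). These 4 are 16.7% of the list, where 16.8% of the brightest 7263 probe sets were lower in every knockout pool and 22 of the 24 repressors lie among them. The DNA-binding subunits stood near 0, with E2f6 at -0.08, Mga at -0.02 and Max at 0.0085, and L3mbtl2 had -0.03. The highest log2 fold changes of the list were those of Hdac2 (0.10) and Dnmt3l (0.06).

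Markers of migrating primordial germ cells other than the 41 genes had a median log2 fold change of -0.061 over 10 genes. Of these, 6 lie among the brightest 7263 probe sets, whose median was -0.035. Set against probe sets of like intensity, the median of the list was -0.027, with 3 of 10 above the local median. The summed intensity of the 10 genes was 5582, 5172 and 5510 in knockout pools, against 5586, 5887 and 5963 in heterozygote pools. Much of this list is shared with other embryonic cells. Pou5f1, which early epiblast also makes, had 8.14, 7.10 and 7.56 in knockout pools, against 7.93, 7.63 and 8.08 in heterozygote pools (-0.28, adjusted p = 0.710). Alpl (-0.18) was the next lowest, and Dnd1 (0.23) and Sox17 (0.04) were the highest. The 8 neural ectoderm markers read had summed intensities of 2523 to 2590 in knockout pools, against 2612 to 2740 in heterozygote pools. No tissue other than the head was measured, so these sums do not test the head label. The 8 markers had a median log2 fold change of -0.061, or -0.026 against probe sets of like intensity, with 3 above the local median. Of the 8, 4 lie among the brightest 7263 probe sets. Among the 8 markers Hesx1, a homeobox gene of the forebrain, had the lowest log2 fold change (-0.39, adjusted p = 0.356), followed by Rax (-0.20). Sox1 (0.20) and Pax6 (0.15, adjusted p = 0.556) were the highest.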

How the data were processed

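RNA of 6 pools of E8.5 heads was measured on 6 arrays. The deposited intensities, read as linear because of their range, were made by the authors with RMA, run per the submitters' notes in Affymetrix Power Tools (version not given in the sources used here). Array medians were between 58.1 and 62.9. Of 35556 rows, 21789 had exactly 1 gene symbol in the platform annotation and were tested, while 1621 with several and 12146 with none were left out. The row with the highest mean over 6 arrays stood for a gene. Log2 values of knockout and heterozygote arrays entered lmFit and eBayes of limma 3.58.1 (R 4.3.3, no covariate), with Benjamini-Hochberg adjustment over all tested rows. The median SE was 0.071, and the number of arrays limits the precision. P-values rest on the spread between pools, which the study calls biological replicates. The script was tested on simulated data. Detection calls were not used here, so no probe set was judged to lie above or below background.

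The members and lists were chosen with earlier results of these data known. Described in detail were genes at an unadjusted p under 0.05 or with separate pools, the 4 highest and 4 lowest log2 fold changes, the 5 brightest, Mael, and Jarid1b with its paralogs, and in other lists the 2 highest and 2 lowest. Nanos2, Sohlh2, Tex101 and smaller changes are given to account for every gene, and L3mbtl2, E2f6, Mga and Max for their place in the complex. Alternatives changed the normalization, the filter on dim rows, the rows used, the variance model, array weights and a replicate block, or left out each pool. Same-numbered arrays had correlated deviations of 0.00076, 0.106 and -0.013, so numbers were not taken to pair pools. Promoter windows came from RefSeq (GRCm38.p6).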

Additional observations from a re-analysis of the deposited data

How the results depend on the processing

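Across 15 alternatives no germline gene was called at an adjusted p under 0.05 (limma), the smallest being 0.313, and Jarid1b was lower in all of them (-1.60 to -1.48, adjusted p 5.56e-07 to 0.0226). Of 216 values of 15 named germline genes, 209 kept their direction. Tex15 turned to -0.029 under quantile normalization, -0.028 under cyclic loess, -0.027 under median centring (a shift shared by all probe sets) and -0.053 without knockout replicate 3, without which Prdm1 was 0.0087 and Syce2 -0.0095, and Ddx4 was 0.014 without heterozygote replicate 2. Leaving out each pool in turn gave -0.45 to 0.014 for Ddx4, -0.17 to 0.0087 for Prdm1, -0.0095 to 0.076 for Syce2 and -0.053 to 0.068 for Tex15. The cause was not tested.

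Before adjustment, 5 genes were higher and 1 lower with a p under 0.05, which became 3 and 3 under quantile normalization (backgrounds 4.13% and 3.9%), 3 and 3 under cyclic loess (3.85% and 4.57%) and 3 and 2 under median centring (2.94% and 6.82%), which moved the median of all probe sets to -0.040. The lower count was 0 with limma's trend and robust options (background 6.38%). The median of the set became -0.0139, -0.0163 and -0.0173 under these 3 scalings. That is below the median of all probe sets under the first 2 and above it under median centring. Without the dimmest 7263 probe sets 9 germline genes remained, with 1 higher and 0 lower at that p (backgrounds 4.47% and 7.79%), and 1 higher and 1 lower with separate pools (6.02% and 12.5%). Cyclic loess gave 5 genes lower with separate pools (7.82%). Leaving out a pool gave 3 to 6 higher (3 without knockout replicate 3) and 1 to 3 lower (3 without knockout replicate 1, 2 without heterozygote replicates 1 or 3) at that p (backgrounds 4.72% to 6.35% and 2.84% to 4.94%), 5 to 9 higher and 3 to 6 lower with separate pools (12.4% to 14.9% and 12.7% to 16.0%), and a median from 0.019 to 0.037 (0.037 without heterozygote replicate 2). With the replicate number as a block, 6 genes were higher and 1 lower at that p (backgrounds 6.06% and 3.95%) and none was called. Most germline genes lie among the dimmest 7263 probe sets, where the median SE was 0.084, against 0.060 among the brightest 7263.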
